A study of Mus musculus with 9 samples.

Results

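The genes described here encode the proteins of the cytosolic ribosome. They were chosen by symbol: protein-coding mouse genes named Rps or Rpl with a subunit number, with Rpsa, Rplp0, Rplp1 and Rplp2. The rule found 83 members among 47731 genes in the RNA tables, 32 of the small subunit and 51 of the large subunit. A further 5 genes matched the name pattern but are annotated as pseudogenes (Rps3a2, Rps3a3, Rps12l1, Rpl6l and Rps4l) and were not counted as members. The cells were mouse macrophages at passage 0 grown with M-CSF, a growth factor for macrophages. Ribosomal-RNA-depleted total RNA was sequenced from Tet2 knockout (KO) macrophages in 2 libraries and from wild-type (WT) macrophages in 3 libraries. DNA enriched for 5-hydroxymethylcytosine (5hmC, the base that the TET2 enzyme makes from 5-methylcytosine) gave 2 KO and 2 WT libraries. The labels give the genotype only as Tet2 knockout or wild type, name no strain, age or allele, and do not say whether libraries came from separate animals, and any p-value therefore reflects the spread among the libraries alone, part or all of which may be technical.

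A ribosome is built from 1 copy of nearly every ribosomal protein, so cells make these proteins in matched amounts, and a subunit that lacks a protein is usually not completed. Their mRNAs are among the most abundant in growing cells, begin with a run of pyrimidines (the terminal oligopyrimidine or TOP motif) and are switched between translated and stored states by the mTORC1 pathway through LARP1. Many of their promoters carry sites for ETS-family factors. Mammalian genomes also hold very many processed pseudogenes of ribosomal protein genes, whose reads can be hard to tell from those of the parent gene.

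Promoters of members that the results below turn on are shown first, since binding sites and the TOP motif are what these genes are known to share. RefSeq promoter entries on GRCm38.p6 were found for 63 of the 83 members, and none was found for Rpl29 or Rpl3. Each line gives the 100 bases from 80 before to 20 after the annotated start, on the gene's own strand. Capitals mark the ETS core CCGGAAG on either strand, or a run of at least 8 C or T that lies within 10 bases before to 20 bases after the start. A run and a core can overlap.
Rps2, chr17:24719983-24720082 (+): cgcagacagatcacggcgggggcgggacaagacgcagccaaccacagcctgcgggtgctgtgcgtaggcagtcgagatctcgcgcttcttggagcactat
Rps18, chr17:33955646-33955745 (-): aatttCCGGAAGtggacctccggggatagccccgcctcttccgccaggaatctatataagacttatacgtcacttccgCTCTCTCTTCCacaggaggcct
Rpl34, chr3:130730379-130730478 (-), the first of 2 entries: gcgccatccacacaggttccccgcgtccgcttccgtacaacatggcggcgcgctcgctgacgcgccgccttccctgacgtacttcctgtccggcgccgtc
Rplp0, chr5:115559387-115559486 (+): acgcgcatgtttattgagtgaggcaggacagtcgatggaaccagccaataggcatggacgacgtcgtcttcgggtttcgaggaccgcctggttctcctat
Rps6, chr4:86857348-86857447 (-): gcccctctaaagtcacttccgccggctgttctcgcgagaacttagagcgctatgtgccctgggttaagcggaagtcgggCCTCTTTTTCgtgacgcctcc
Rpl11, chr4:136053374-136053473 (-): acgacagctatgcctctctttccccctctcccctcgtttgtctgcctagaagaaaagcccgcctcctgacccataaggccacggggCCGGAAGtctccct
Over the whole 300-base window, CCGGAAG on either strand was present in 25 of 63 members (39.7%) and in 2465 of 27025 promoters of all genes (9.12%). The run of C or T at the start was present in 21 of 63 members (33.3%) and in 3021 of 27025 promoters (11.2%). Rps2, Rps6 and Rps18 also have a CCGGAAG core in the 300 bases that lies outside the stretch shown. A match is a description of letters only, and annotated starts can differ from the starts used in these cells.

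The RNA libraries held 16053426 and 25479447 counts in genes for KO and 17569441, 51355576 and 56394358 counts for WT. All 16 macrophage markers had counts in every library, with a summed level of 21300 and 24490 normalised CPM in KO and 17100 to 37430 normalised CPM in WT (normalised CPM divide a count by the effective library size after TMM scaling, per 1000000). WT library 3 stood apart with a summed level of 6773 normalised CPM over 14 stromal genes, against 18.0 to 26.7 normalised CPM in KO and 10.9 and 12.6 normalised CPM in the other WT libraries. Tet2 itself was counted at 228 and 123 normalised CPM in KO and 104, 136 and 39.2 normalised CPM in WT, while a knock-in feature of the annotation (ENSMUSGKI000000001) had 1452 and 2245 counts in KO and 0 in each WT library. Megakaryocyte markers summed to 46.2 and 38.3 normalised CPM in KO and 251, 81.1 and 199.5 normalised CPM in WT, and dendritic cell markers to 19.1 and 8.64 normalised CPM in KO and 4.17, 4.72 and 2.07 normalised CPM in WT. The megakaryocyte genes did not go together. Vwf had 13.4 and 16.9 normalised CPM in KO and 233, 59.0 and 74.0 normalised CPM in WT. Pf4 had 31.5 and 19.2 normalised CPM in KO and 4.79, 21.2 and 120 normalised CPM in WT, which overlap. Nor did the dendritic cell genes go together, and most of their sum in KO was Batf3. Batf3 had 14.4 and 5.29 normalised CPM in KO and 2.6, 3.1 and 0.94 normalised CPM in WT. Flt3 had 0.55 and 0.65 normalised CPM in KO and 0.68, 0.15 and 0.05 normalised CPM in WT, which overlap. Neutrophil markers summed to 1.53 and 171.6 normalised CPM in KO and 153.8, 9.87 and 1.86 normalised CPM in WT, so the KO libraries differed from each other. B cell markers summed to 24.4 and 11.7 normalised CPM in KO and 1.09, 2.79 and 15.3 normalised CPM in WT. The part of these marker levels in the results below was not tested.

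As a family, ribosomal protein transcripts took 1.99% and 2.87% of counts in the KO libraries and 2.43%, 2.88% and 3.38% in the WT libraries. The mean was 2.43% ± 0.624 in KO (SD, n = 2) and 2.89% ± 0.478 in WT (SD, n = 3), a difference of -0.46 percentage points that lay inside the spread of 0.531 between libraries. KO library 1 was below every WT library and KO library 2 lay among them, so the genotypes overlapped. Small subunit genes took 0.838% and 1.22% in KO, against 1.01%, 1.21% and 1.42% in WT. Large subunit genes took 1.15% and 1.65% in KO, against 1.42%, 1.67% and 1.97% in WT. In both subunits KO library 1 was lowest, WT library 1 next and WT library 3 highest, with KO library 2 and WT library 2 nearly level between them. The ratio of large to small subunit counts was 1.36 ± 0.0177 in KO (SD, n = 2) and 1.39 ± 0.0102 in WT (SD, n = 3). In bulk samples fewer transcripts per cell and a different mix of cells cannot be told apart.

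**Figure D1:**
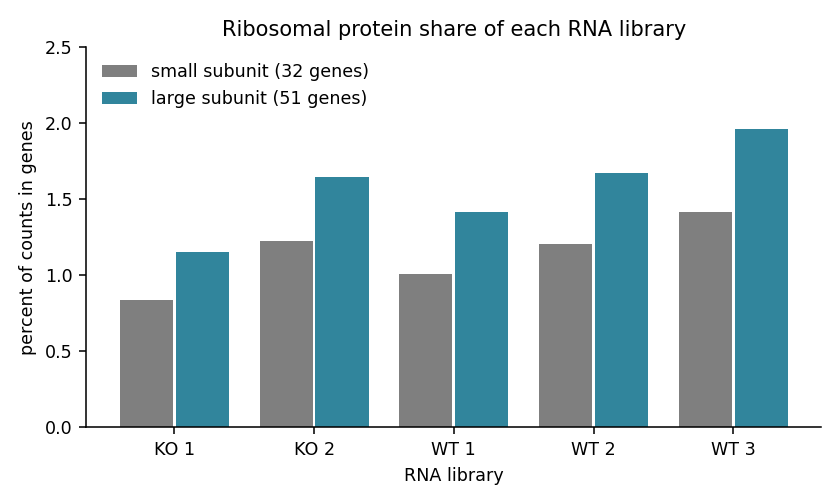
Percent of each RNA library's counts in genes that fell on small subunit (grey) and large subunit (blue) ribosomal protein genes, for 2 KO libraries and 3 WT libraries. KO 1 has the lowest share of both subunits, at 0.838% and 1.15%, and KO 2 lies within the WT range.

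Of the 83 members, 80 passed the filter on low counts and were tested with edgeR's quasi-likelihood test over 14851 genes. No member was called at a Benjamini-Hochberg adjusted p under 0.05 in either direction, where the background was 0.0135% of all tested genes higher and 0.0% lower in KO. limma-voom also called 0, and DESeq2 called 4 members lower in KO (5.0% of 80, against a background of 4.53% lower and 3.18% higher). At an unadjusted edgeR p under 0.05, 6 members were lower (7.5%, background 7.86%) and 0 were higher (background 5.95%). In 14 members both KO libraries lay below all 3 WT libraries (17.5%, background 19.0%), and in 1 both lay above (background 17.2%). The shares of lower calls were near the background, so the number of calls is not a result about this family. What the family had in common was small differences in 1 direction. The fitted level was lower in KO for 71 of 80 members (88.8%), against 51.6% of all tested genes. The median log2 of KO over WT was -0.27 for 32 small subunit genes (28 lower) and -0.24 for 48 large subunit genes (43 lower), against -0.026 for all tested genes, and both medians turn to 0.043 and 0.076 when libraries are scaled to the summed ribosomal protein counts, a scaling that moves the median of all genes to 0.32.

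That shared shift depended on 1 library. KO library 1 lay below all WT libraries for 75 of the 80 tested members, within their range for 4 and above for 1. KO library 2 lay below all WT libraries for 14 members, within their range for 53 and above for 13. In direct comparison KO library 1 was lower than KO library 2 for 32 of 32 small subunit genes, with a median log2 difference of -0.52, and for 47 of 48 large subunit genes, with a median of -0.49. Over all tested genes that median was -0.0066, and 50.5% were lower in KO library 1. Without KO library 1 the medians of KO over WT were -0.015 for the small and -0.0038 for the large subunit, and 43 of 81 tested members were lower. Without KO library 2 they were -0.57 and -0.51, and 80 members were lower. Without WT library 3, which held the stromal genes, they were -0.19 and -0.18, and 64 members were lower. The median of all tested genes was -0.08 without KO library 1, -0.14 without KO library 2 and -0.0052 without WT library 3. Each of these fits repeats the filter on low counts, so the genes tested differ. The dependence on KO library 1 was not tested as particular to this family. The median of tested pseudogenes of all kinds (845 in the main fit) was 0.12 without KO library 1 and -0.33 without KO library 2. The mitochondrial ribosomal proteins and other TOP transcripts described further on turned sign in the same way. Ribosomal protein genes also varied little among WT libraries, with a median SD of log2 level of 0.17 for small and 0.15 for large subunit genes, against 0.42 for all tested genes, many of which have fewer counts.

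**Figure D2:**
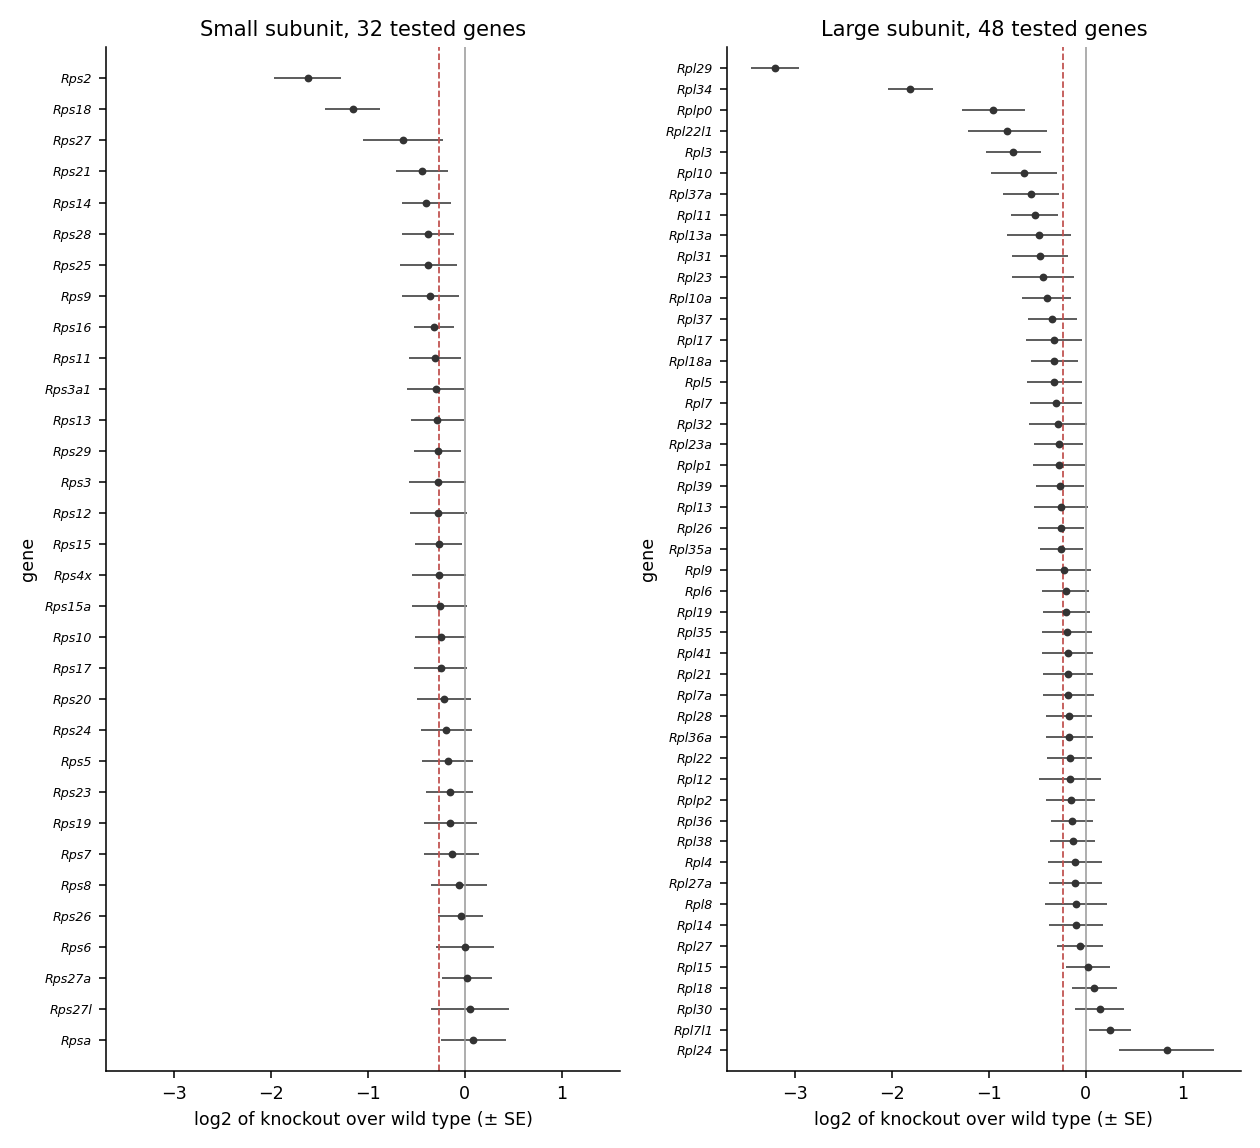
Fitted log2 of KO over WT with its SE for the 80 tested members, by subunit, with the subunit median as a dashed red line and 0 as a grey line. Most members lie between 0 and -0.5, while Rpl29, Rpl34, Rps2 and Rps18 stand to the left; with libraries scaled to the summed ribosomal protein counts the medians turn to 0.043 and 0.076.

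Against this even background, 4 members were lower in both KO libraries by more than the rest of the family, and these were the 4 that DESeq2 called. Rps2 is among them on its own counts only, since with its pseudogene copies added its log2 was -0.95, level with Rplp0. The other 76 tested members had log2 values from -0.95 to 0.84, with edgeR adjusted p of 0.304 or more. Rpl29 (ENSMUSG00000048758, chr9:106428889-106431568, GRCm38) encodes a surface protein of the large subunit, also described as a heparin-binding protein. It was counted at 18.2 and 21.5 normalised CPM in KO and 165, 173 and 210 normalised CPM in WT. Both KO libraries sat far below the lowest WT library, and the means were 19.9 ± 2.34 in KO (SD, n = 2) and 183 ± 24.2 in WT (SD, n = 3). The log2 of KO over WT was -3.20 ± 0.25 (SE), a level 9.20-fold lower in KO, with an edgeR adjusted p of 0.0857 and a DESeq2 adjusted p of 6.9e-30. As a share of all ribosomal protein counts, a measure that the library's overall ribosomal protein level does not move, Rpl29 held 0.0933% and 0.0772% in KO and 0.565%, 0.638% and 0.659% in WT. Leaving out any 1 library left its log2 between -3.34 and -3.09, with edgeR adjusted p from 0.0764 to 0.995. The values of 0.730 and 0.995 come from fits with 1 KO library, where the WT libraries alone give the spread and the lone library is assumed to vary as they do.

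Rpl34, also of the large subunit (ENSMUSG00000062006, chr3:130726827-130730398), had 49.3 and 59.7 normalised CPM in KO and 197, 166 and 209 normalised CPM in WT. The groups were far apart, with a log2 of -1.81 ± 0.23 (SE), an edgeR adjusted p of 0.148 and a DESeq2 adjusted p of 1.8e-10. Rps2, a small subunit protein that lines the channel through which mRNA enters (ENSMUSG00000044533, chr17:24718121-24721927), had 175 and 249 normalised CPM in KO and 497, 650 and 809 normalised CPM in WT. Its groups did not overlap either, with a log2 of -1.62 ± 0.34 (SE), an edgeR adjusted p of 0.199 and a DESeq2 adjusted p of 6.9e-04. Rps18, a protein of the small subunit head (ENSMUSG00000008668, chr17:33951998-33955665), had 155 and 215 normalised CPM in KO and 354, 393 and 490 normalised CPM in WT. Its highest KO library was below its lowest WT library, with a log2 of -1.16 ± 0.29 (SE), an edgeR adjusted p of 0.226 and a DESeq2 adjusted p of 0.0083. Scaled to the summed ribosomal protein counts, the log2 values were -2.87 for Rpl29, -1.47 for Rpl34, -1.30 for Rps2 and -0.84 for Rps18. Over 15 alternatives other than DESeq2, their adjusted p from edgeR or limma-voom ran from 0.0745, 0.111, 0.166 and 0.193 in that order up to 0.995 for each, the highest value coming from the fit with KO library 2 as its lone KO library.

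The proteins of the stalk, the flexible arm of the large subunit that recruits elongation factors, differed among themselves. Rplp0, the base of the stalk, had 432 and 579 normalised CPM in KO and 772, 982 and 1180 normalised CPM in WT, with no overlap. Its log2 of KO over WT was -0.95 ± 0.33 (SE), with an edgeR adjusted p of 0.304 and a DESeq2 adjusted p of 0.0621, so it was not called. Rplp1, which dimerises with Rplp2 on that base, had 516 and 689 normalised CPM in KO and 692, 710 and 784 normalised CPM in WT, with a log2 of -0.27. KO library 2 almost touched the lowest WT library. Rplp2 had 188 and 277 normalised CPM in KO and 261, 240 and 276 normalised CPM in WT, with a log2 of -0.16. KO library 1 was below and KO library 2 just above all WT libraries.

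At the catalytic core, Rpl3, which reaches into the peptidyl transferase centre, had 346 and 503 normalised CPM in KO and 672, 692 and 775 normalised CPM in WT. The groups did not overlap, and the log2 was -0.75 ± 0.28 (SE) with an edgeR adjusted p of 0.340. Rpl10, which joins the large subunit late in its assembly, had 378 and 506 normalised CPM in KO and 912, 551 and 598 normalised CPM in WT. WT library 1 was far above the other WT libraries, and the log2 was -0.64 ± 0.34 (SE) with an edgeR adjusted p of 0.467. Apart from Rpl11, described with its other roles, the remaining members without overlap on the lower side were Rpl37a, Rpl10a, Rps21, Rps14 and Rps16, lower in KO by log2 values of -0.57, -0.40, -0.44, -0.40 and -0.32.

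**Figure D3:**
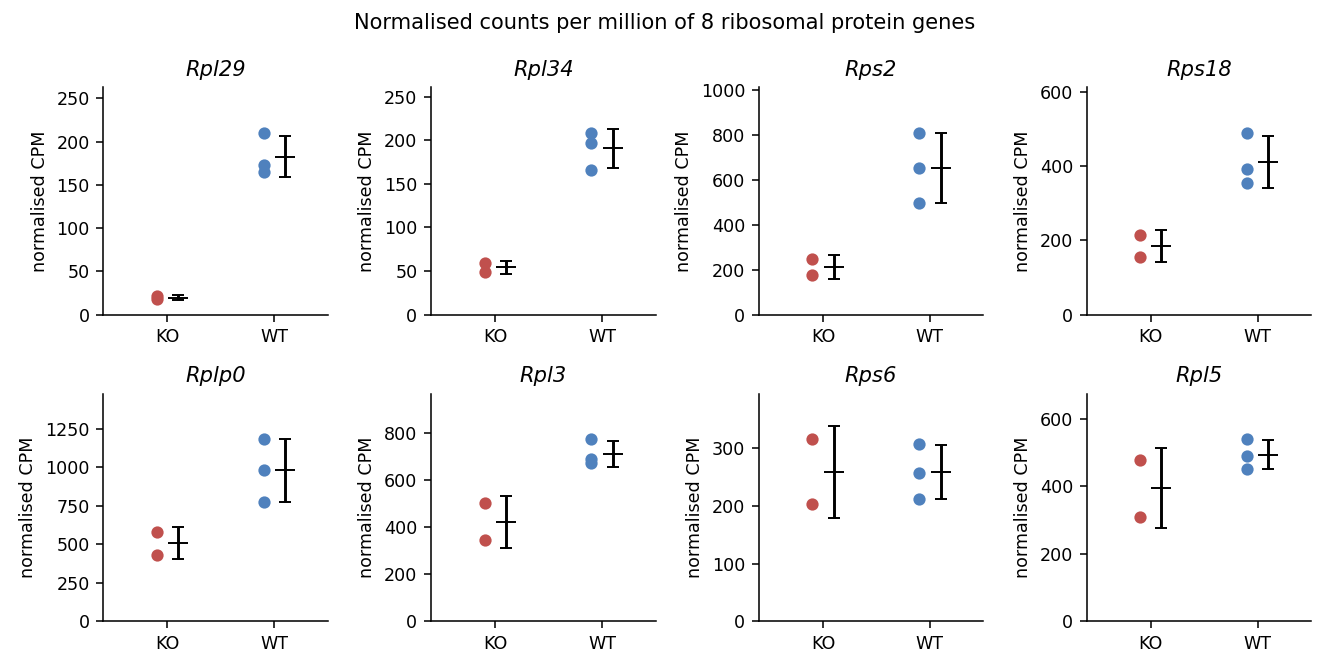
Normalised CPM of 8 members in each KO library (red, left) and WT library (blue, right), with the mean and SD beside the points. Rpl29 and Rpl34 are separated widely, Rps2, Rps18, Rplp0 and Rpl3 are separated by less, and for Rps6 and Rpl5 the KO libraries straddle or reach the WT values.

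Members with known roles outside the ribosome gave smaller differences. Rpl11 and Rpl5 bind the smallest ribosomal RNA of the large subunit, and when ribosome assembly is disturbed they bind and inhibit Mdm2, the ubiquitin ligase of p53. Rpl11 had 161 and 218 normalised CPM in KO and 265, 258 and 296 normalised CPM in WT. Its KO libraries were both lower, with a log2 of -0.53 ± 0.24 (SE) and an edgeR adjusted p of 0.402. Rpl5 had 311 and 479 normalised CPM in KO and 491, 452 and 540 normalised CPM in WT, with KO library 2 inside the WT range and a log2 of -0.32. Rps6, the substrate of the S6 kinases downstream of mTORC1, had 203 and 315 normalised CPM in KO and 212, 257 and 307 normalised CPM in WT. KO library 1 was below and KO library 2 above all WT libraries, and the log2 was 0.0021 ± 0.30 (SE). Rps19, mutated in human Diamond-Blackfan anaemia, had 316 and 451 normalised CPM in KO and 394, 396 and 488 normalised CPM in WT, with a log2 of -0.15. Rpl13a, known in human monocytes for a complex that silences inflammatory mRNAs, had 283 and 486 normalised CPM in KO and 516, 464 and 631 normalised CPM in WT, with a log2 of -0.48. Rpsa, also known as a laminin receptor, had 620 and 896 normalised CPM in KO and 533, 761 and 847 normalised CPM in WT, with a log2 of 0.09. Rps27a, made as a fusion with ubiquitin, had 260 and 390 normalised CPM in KO and 308, 333 and 322 normalised CPM in WT, with a log2 of 0.019. In each of these last 4 the KO libraries lay on both sides of at least 1 WT library.

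Members fitted higher in KO were 9 of 80, and none was called by edgeR or DESeq2. Rpl24, which forms a bridge between the subunits, was the one member whose KO libraries both lay above WT, at 1.28 and 1.22 normalised CPM in KO and 0.889, 0.698 and 0.535 normalised CPM in WT. These levels rest on 21 and 32 counts in KO and 13, 38 and 32 counts in WT, and the log2 was 0.84 ± 0.49 (SE) with an edgeR adjusted p of 0.501. Rpl24 held 0.0066% and 0.0044% of ribosomal protein counts in KO and 0.0030%, 0.0026% and 0.0017% in WT. Whether this feature took up all reads of the gene was not tested, so its values may not describe the level of Rpl24 mRNA. Rpl30 had 168 and 241 normalised CPM in KO and 171, 212 and 173 normalised CPM in WT, with a log2 of 0.14. Rpl18 had 279 and 341 normalised CPM in KO and 276, 272 and 325 normalised CPM in WT, with a log2 of 0.09. The 53 tested members not described by name in full ranged from -0.57 to 0.03, and 52 of them were lower in KO.

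Some members are named as paralogs of a more common ribosomal protein, and whether any of them took its place in the ribosome was not tested. Rpl22l1, the paralog of Rpl22, had 22.4 and 51.3 normalised CPM in KO and 67.1, 51.3 and 75.1 normalised CPM in WT, with a log2 of -0.81 ± 0.41 (SE) and an edgeR adjusted p of 0.444. Rpl22 had 146 and 205 normalised CPM in KO and 200, 186 and 204 normalised CPM in WT. Rpl22l1 made up 13.3% and 20.1% of the counts of the pair in KO and 25.2%, 21.6% and 26.9% in WT, without overlap. Rpl7l1 had 98.8 and 139 normalised CPM in KO and 100, 103 and 96.1 normalised CPM in WT, with a log2 of 0.25. Its parent Rpl7 had 377 and 530 normalised CPM in KO and 580, 515 and 590 normalised CPM in WT. Rpl7l1 therefore held 20.7% and 20.7% of that pair in KO, above the 14.7%, 16.7% and 14.0% in WT. Rps27l had 75.8 and 91.6 normalised CPM in KO and 49.2, 71.4 and 121 normalised CPM in WT, against 133 and 203 normalised CPM in KO and 385, 182 and 220 normalised CPM in WT for Rps27. WT library 1 had both the lowest Rps27l and the highest Rps27, and the genotypes overlapped for both genes.

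Paralogs known from testis or muscle had few or no counts outside WT library 3. Rpl39l, a testis paralog of Rpl39, had no counts in either KO library, 0 and 8 counts in WT libraries 1 and 2 and 734 counts in WT library 3. That is 12.3 normalised CPM in WT library 3 alone, the library that also held the stromal markers. A count of 0 allows up to 0.187 and 0.118 counts per 1000000 in KO and 0.171 in WT library 1. Rpl39 itself had 153 and 223 normalised CPM in KO and 238, 205 and 236 normalised CPM in WT, a log2 of -0.27. Rpl3l, the muscle paralog of Rpl3, had 0 counts in both KO libraries and 0, 2 and 1 counts in WT. Rpl10l had no count in any library. Rps4l, annotated as a transcribed pseudogene, had 36 and 71 counts in KO and 36, 117 and 532 counts in WT, beside 448 and 656 normalised CPM in KO and 682, 648 and 660 normalised CPM in WT for Rps4x.

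Counts of many members divide between the gene and near-identical copies. The share on copies was higher in KO without overlap for 8 members, lower for 5 and overlapping for 45. No background over other genes was computed for such shares, so these numbers are not a result about the members. In some of the 8 the difference was very small. Rpl7a had 0.184% and 0.186% on copies in KO and 0.180%, 0.161% and 0.151% in WT. Rps2, Rpl34 and Rpl3, all described above, were among the 8, and no test was made of these shares. The tables hold 272 genes named as pseudogenes (-ps) of 58 members, of which 82 had no count in any library. Rps2 has 8 named copies, which held 36.9% and 39.4% of the summed counts in KO and 2.14%, 2.21% and 2.12% in WT. Nearly all of this was Rps2-ps10, at 102 and 161 normalised CPM in KO and 10.3, 13.9 and 16.7 normalised CPM in WT. Its log2 of KO over WT was 3.27 ± 0.32 (SE) with an edgeR adjusted p of 0.137. For gene and copies summed, Rps2 had 278 and 411 normalised CPM in KO and 507, 665 and 826 normalised CPM in WT, and the log2 shrank to -0.95 ± 0.34 (SE, edgeR adjusted p = 0.321). Rpl34 with 2 copies held 24.8% and 25.3% of counts on copies in KO and 3.94%, 3.39% and 3.19% in WT. Most of these counts lay on Rpl34-ps1, which RefSeq annotates as protein coding, at 15.3 and 19.1 normalised CPM in KO and 7.73, 5.42 and 6.42 normalised CPM in WT. Summed with the copies, the log2 of Rpl34 was -1.44 ± 0.23 (SE, edgeR adjusted p = 0.167).

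Rpl3 with 2 copies held 17.5% and 18.1% on copies in KO and 6.24% to 7.01% in WT. Its copies differed in direction. Rpl3-ps1 had 72.8 and 110 normalised CPM in KO and 35.4, 41.9 and 44.9 normalised CPM in WT, with a log2 of 1.16 ± 0.25 (SE, edgeR adjusted p = 0.200). Rpl3-ps2 had 0.733 and 1.18 normalised CPM in KO and 9.30, 10.2 and 13.5 normalised CPM in WT, with a log2 of -3.51 ± 0.45 (SE, edgeR adjusted p = 0.148). With copies added, the log2 of Rpl3 was -0.57 ± 0.29 (SE). Rpl29 differs from these 3 in its named copies, although its share on copies was also higher in KO without overlap. That share rests on 3 and 1 copy counts in KO. Its 3 named copies together had at most 17 counts in any library, and adding them left its log2 at -3.20. Pseudogenes under other names were not counted as copies of any member, and reads on those were not tested. Rpl14-ps1, another of the 3 copies with the highest mean level, had 36.8 and 59.3 normalised CPM in KO and 44.7, 49.6 and 60.9 normalised CPM in WT, which overlap. Over all members, copies took 2.94% and 3.04% of the counts of genes and copies in KO and 2.10%, 2.18% and 2.20% in WT. Without Rps2, Rpl34 and Rpl3 those shares were 2.07% and 2.10% in KO and 1.98%, 2.04% and 2.06% in WT. The sources used here do not say how reads that match several places were counted, so levels of a gene and its copies are uncertain one by one. Members without any named copy had a median of -0.27 over 22 tested (20 lower), and the 58 with copies had a median of -0.25 (51 lower).

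**Figure D4:**
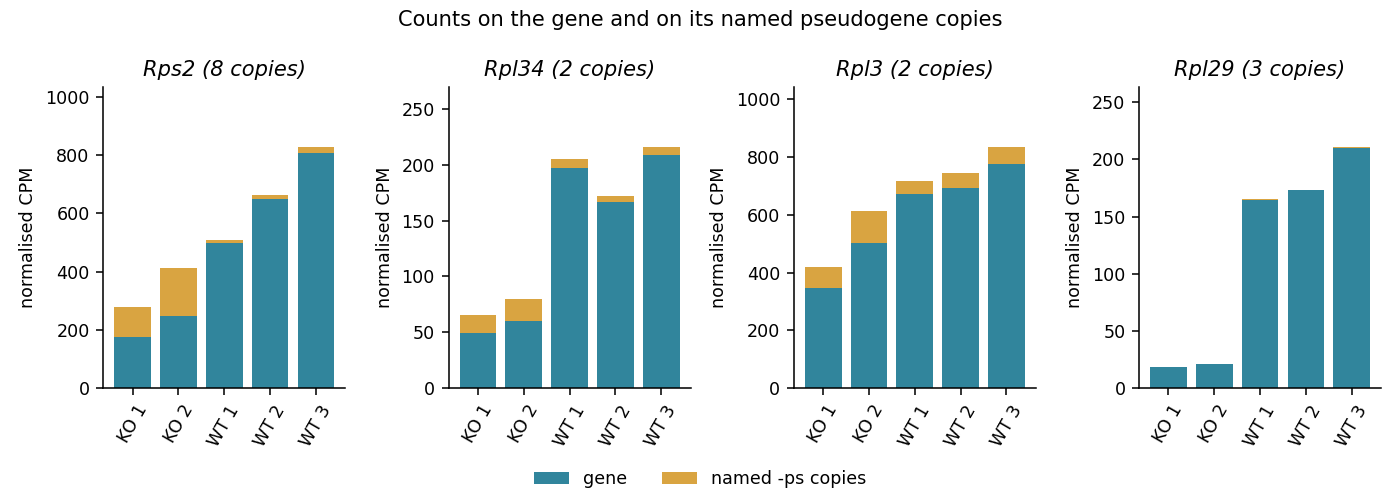
Normalised CPM on each gene (blue) and on its named -ps copies (orange) in 2 KO libraries and 3 WT libraries, stacked, for Rps2, Rpl34, Rpl3 and Rpl29. Copies hold 36.9% and 39.4% of the Rps2 bar in KO against about 2.1% to 2.2% in WT, while for Rpl29 the copies are too few to see.

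Other genes of ribosomes and translation had other medians. Of 77 mitochondrial ribosomal protein genes, which build the separate ribosome of mitochondria, 37 were lower and 40 higher, with a median of 0.014 that was 0.20 without KO library 1 (17 lower) and -0.21 without KO library 2 (59 lower). Of 45 translation initiation and elongation factors, 14 were lower and 31 higher, with a median of 0.19 (0.098 to 0.28 with any 1 library left out). Eif4g2, a translation initiation factor, had 1270 and 1828 normalised CPM in KO and 634, 859 and 704 normalised CPM in WT, a log2 of 1.08 ± 0.32 (SE, edgeR adjusted p = 0.259). Other transcripts with a TOP motif numbered 20, of which 11 were lower, with a median of -0.17 that was 0.026 without KO library 1 (9 lower) and -0.37 without KO library 2 (16 lower). Among them Tpt1 had 264 and 468 normalised CPM in KO and 1277, 479 and 558 normalised CPM in WT, with WT library 1 far above the other WT libraries and a log2 of -1.08. No gene of these lists, or of the lists that follow, was called by edgeR at an adjusted p under 0.05. DESeq2 called 2 of 45 translation factors (4.44%), 5 of 73 biogenesis genes (6.85%) and 3 of 12 snoRNA hosts (25%) higher, against a background of 3.18%. It called 4 of 23 genes of mTORC1 and MYC control lower (17.4%, background 4.53%) and 1 higher (4.35%), and 1 of 12 p53 axis genes lower (8.33%). With libraries scaled to total counts the median of mTORC1 and MYC control turned to 0.0087, and with libraries scaled to ribosomal protein counts that list and the TOP list had medians of 0.35 and 0.16.

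Ribosome biogenesis genes, whose products transcribe, cut, modify and fold ribosomal RNA, were on the other side of 0. Of 73 tested, 65 were higher in KO and 8 lower, with a median log2 of 0.48. At an unadjusted edgeR p under 0.05, 22 were higher (30.1%, background 5.95%) and 0 lower, and in 40 both KO libraries lay above all WT libraries (54.8%, background 17.2%). Mdn1, the large ATPase that remodels large subunit precursors, had 306 and 267 normalised CPM in KO and 98.1, 124 and 90.7 normalised CPM in WT. Its log2 of 1.46 ± 0.23 (SE) had an edgeR adjusted p of 0.162. Polr1a, the catalytic subunit of RNA polymerase I, had 122 and 113 normalised CPM in KO and 49.9, 58.1 and 74.99 normalised CPM in WT, a log2 of 0.95 ± 0.24 (SE, edgeR adjusted p = 0.226). Fbl, the methyltransferase of box C/D snoRNPs, had 39.4 and 46.8 normalised CPM in KO and 21.8, 26.9 and 30.9 normalised CPM in WT, a log2 of 0.70 ± 0.24 (SE, edgeR adjusted p = 0.305). The list's median stayed between 0.31 and 0.66 when any 1 library was left out.

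Hosts of small nucleolar RNAs, many of which are themselves TOP transcripts that encode no protein, gave 11 of 12 higher with a median of 0.66 (0.42 to 1.02 with any 1 library left out). Gas5 had 125 and 119 normalised CPM in KO and 68.8, 70.3 and 84.5 normalised CPM in WT, a log2 of 0.71 ± 0.19 (SE, edgeR adjusted p = 0.239). In the list of mTORC1 and MYC control of ribosome production, 13 of 23 were lower and the median was -0.041 (-0.094 to 0.038 with any 1 library left out). Larp1, which binds TOP mRNAs and represses their translation, had 263 and 244 normalised CPM in KO and 143, 149 and 148 normalised CPM in WT, a log2 of 0.79 ± 0.19 (SE, edgeR adjusted p = 0.217). Myc, which drives transcription of ribosomal protein and biogenesis genes, had 50.7 and 49.8 normalised CPM in KO and 8.41, 16.7 and 40.7 normalised CPM in WT, with a log2 of 1.19 ± 0.64 (SE, edgeR adjusted p = 0.465). Lower in KO at an unadjusted p under 0.05 were Deptor, Mxd4, Pdcd4, Eef2k and Maf1, with log2 values of -1.94, -1.90, -1.83, -1.53 and -0.69. That is 5 of 23 (21.7%, background 7.86%), and 1 of 23, Larp1, was higher at that threshold (4.35%, background 5.95%). Without overlap, 6 were lower (26.1%, background 19.0%) and 7 higher (30.4%, background 17.2%). For the p53 axis that free Rpl5 and Rpl11 can engage, 8 of 12 genes were higher, with a median of 0.24 that was -0.020 without WT library 1 (7 lower) and 0.53 without WT library 3 (2 lower). Trp53inp1, a target of p53, had 26.2 and 17.7 normalised CPM in KO and 79.9, 53.9 and 78.6 normalised CPM in WT, a log2 of -1.69 ± 0.31 (SE, edgeR adjusted p = 0.179). Cdkn1a, a cell cycle inhibitor, had 119 and 89.3 normalised CPM in KO and 12.5, 51.3 and 73.5 normalised CPM in WT, and its edgeR adjusted p was 0.497. The summed level of 12 cell cycle genes was 1416 and 2836 normalised CPM in KO and 451, 3366 and 2469 normalised CPM in WT, and its part in these values was not tested.

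**Figure D5:**
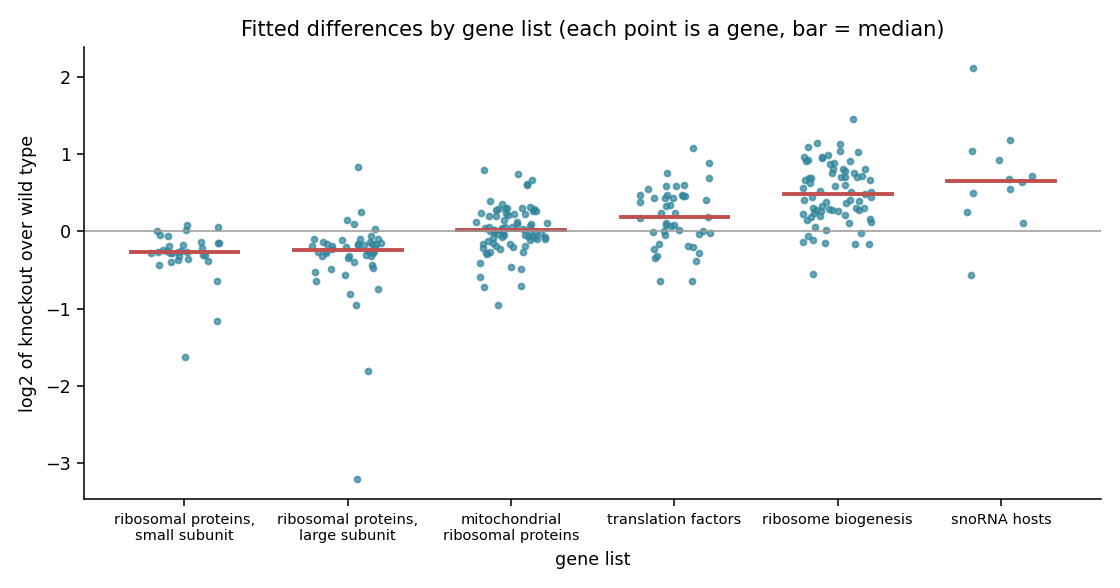
Fitted log2 of KO over WT for each tested gene of 6 lists (points), with the list median as a red bar and 0 as a grey line. The ribosomal protein medians are -0.27 and -0.24 and turn to 0.043 and 0.076 with libraries scaled to the summed ribosomal protein counts, while the biogenesis and snoRNA host medians are 0.48 and 0.66.

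5hmC was listed at few ribosomal protein genes. Of 9151 listed peaks, some lay in the gene body of 6 of 83 members (7.23%), against 16.6% of 21900 protein-coding genes. Member genes are short, with a median span of 3183 bp against 17146 bp for all protein-coding genes, and that difference in length was not corrected for. The libraries held 46230 and 42489 counts in listed peaks for KO and 42678 and 219116 for WT. Over 2544 peaks with at least 10 counts, the KO libraries were more alike than sampling noise would leave them, with a chi-square of 0.575 for each degree of freedom. For the WT libraries it was 1.20 over 8647 peaks with at least 10 counts, so the 2 values rest on unlike sets of peaks. The KO libraries are counted as 1 sample, and no test was made. The Rplp0 peak (chr5:115560779-115561213, inside the gene and called in KO) had 16 and 14 counts in KO and 4 and 12 counts in WT, or 34.6 and 32.9 per 100000 peak counts in KO and 9.37 and 5.48 in WT. Both KO values were above both WT values, in a gene whose RNA was lower in KO. The peak in Rpl4 had 9 and 8 counts in KO and 3 and 3 counts in WT. The peak in Rpl35 had 4 and 8 counts in KO and 1 and 6 in WT. That in Rpl17 had 6 and 8 in KO and 2 and 8 in WT. Per 100000 peak counts, Rpl4 had 19.5 and 18.8 in KO and 7.03 and 1.37 in WT. On that scale Rpl35 had 8.65 and 18.8 in KO and 2.34 and 2.74 in WT. Rpl17 had 13.0 and 18.8 in KO and 4.69 and 3.65 in WT. Peaks in Rps29 and Rps3 were called in WT, with 6 and 5 counts in KO and 3 and 19 in WT for Rps29, and 7 and 2 in KO and 4 and 22 in WT for Rps3. Within 2 kb of Rpl5 a peak called in WT had 1 and 1 counts in KO and 9 and 36 in WT. Per 100000 peak counts that is 2.16 and 2.35 in KO and 21.1 and 16.4 in WT. A peak was listed because it was called in one genotype, so its direction is not independent of that choice. No peak was listed within the bodies of Rpl29, Rpl34, Rps2 or Rps18.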

How the data were processed

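The authors deposited counts of reads for each gene (RNA) and for each peak (5hmC). Tools named in the submitters' processing notes are HTSeq, STAR, BWA, MACS2, Trim Galore and CASAVA 1.4, with the build GRCm38. Strand setting and handling of reads that match several places: not given in the sources used here. Groups and replicate numbers came from the labels. RNA was fitted with edgeR 4.0.16 in R 4.3.3 (quasi-likelihood test, TMM, filterByExpr, 2 KO against 3 WT libraries, two-sided, Benjamini-Hochberg over 14851 genes, threshold 0.05). SEs were taken from the log2 value and its F statistic. The steps were tested on simulated counts.

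Symbols were matched by Ensembl identifier for 47224 of 47731 genes. Biotypes and positions were then taken by symbol from the RefSeq table of GRCm38.p6, where some symbols had no entry. Copies are genes named by a member's symbol and -ps. Members without a named copy can still have pseudogenes under other names. The floor for a count of 0 is 3 counts in a library, for counting error alone. Members and lists were chosen with earlier results of these data known. Values in every library are given for the 5 members with the smallest p in each direction, paralogs with their parents, members of known roles, and members called by DESeq2. A planned ranking by level per coding length was not made, because coding lengths were not used here. Examples from the lists were picked with their values known. One planned list is not reported here. Alternatives were DESeq2 1.42.0, limma-voom 3.58.1, other scalings and filters, a threshold of 0.1, copies added to the parent, a replicate block and leaving out each library. Scaling to the summed ribosomal protein counts was chosen after seeing the data.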

Additional observations from a re-analysis of the deposited data

How the results depend on the processing

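The number of members called was 4 with DESeq2, 1 (Rpl29) at an adjusted p threshold of 0.1 and 0 under the other alternatives run. The medians depend on KO library 1: leaving out each library gave -0.57 to -0.015 for the small subunit (17 to 32 genes lower) and -0.51 to -0.0038 for the large subunit (26 to 48 genes lower), and a difference in share of -0.91 to -0.023 percentage points. Scaled to the summed ribosomal protein counts, which removes a shift of the whole family by construction, the medians were 0.043 and 0.076 with 8 and 16 genes lower. That scaling also gave values above 0 for Rpl22 (0.14), Rpl39 (0.043), Rpl7 (0.0051), Rplp1 (0.044), Rplp2 (0.15), Rps19 (0.16) and Rps4x (0.039). With the replicate block no member was called and the medians were -0.22 and -0.20 (27 and 40 genes lower), and Rps27a was -0.0067. Libraries of KO and WT share only a replicate number: deviations from the group means correlated at 0.00125 for the libraries numbered 1 and at -0.124 for those numbered 2.

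Rps6 and Rps27a, both near 0, also turned sign: Rps6 was -0.027 with no filter on low counts, -0.0042 with limma-voom and -0.0018 with TMM factors computed without ribosomal protein and mitochondrial genes, and Rps27a was -0.0035 and -0.017 with the first 2 of these. Leaving out each library turned the sign of 10 named genes, with ranges of -0.36 to 0.28 for Rps6, -0.32 to 0.28 for Rps27a, -0.24 to 0.47 for Rps27l, -0.22 to 0.32 for Rpsa, -0.44 to 0.080 for Rps19, -0.45 to 0.058 for Rpl22, -0.48 to 0.097 for Rplp2, -0.075 to 0.23 for Rpl18, -0.16 to 0.38 for Rpl30 and -0.031 to 0.48 for Rpl7l1. The cause of these sign changes was not tested. Genes with few counts, such as Rpl24, have less certain values, and why Rpl24 had so few counts was not tested.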
